A study of Mus musculus with 8 samples.

Results

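The genes described here are Akr1c6, Akr1c12, Akr1c13, Akr1c14, Akr1c18, Akr1c19, Akr1c20, Akr1c21, Akr1cl and 2810429I04Rik, which are 10 of the 32285 genes counted in a single-cell RNA-seq pool of embryonic mouse kidneys. They were found by their symbols. Of these, 8 lie side by side on chromosome 13, the long non-coding RNA gene 2810429I04Rik lies on the same chromosome outside that group, and Akr1cl, a relative in name, lies on chromosome 1. The set was selected on the contrast of Trim28 knockout and control cells in this same pool, where Akr1c18 and Akr1c21 were among the genes with the largest differences. Differences between genotypes in these genes are therefore descriptions: no p-value of a member is given, and where members called in a fit over all genes are counted, nothing is read from the count.

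Trim28 encodes a corepressor that zinc finger proteins bring to DNA and that recruits enzymes of repressive chromatin. The pool held kidneys of male embryos, at E17.5 by the sample labels and a later day of gestation by the study's methods. In 2 mice (mouse 1 and mouse 2, called ko) both floxed Trim28 alleles had been deleted by a Six2-cre transgene (Trim28Δ/Δ), and 2 mice (mouse 3 and mouse 4, called wt) were Trim28f/f; the lines were kept on C57BL/6. The Six2 promoter is active in nephron progenitors, so Cre deletes the gene in these cells and their descendants, and not in the ureteric bud, stroma, endothelium or immune cells. Cells were told apart by the tag of their mouse and grouped into classes by lists of marker genes, with the Akr1c genes and 2810429I04Rik left out of the clustering.

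Aldo-keto reductases are soluble enzymes that reduce aldehydes and ketones with a nicotinamide cofactor. Those of the Akr1c family act mainly on steroids and prostaglandins: they interconvert a ketone and a hydroxyl group at a given position of the steroid and thereby switch hormones between more and less active forms. The proximal tubule, which reabsorbs most of the filtered solutes and also detoxifies and secretes many compounds, is a site at which the kidney uses such enzymes.

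On GRCm38, the 8 genes of the cluster span chr13:4049011-4586541, a stretch of 538 kb. In order they are Akr1c14, a 3-alpha-hydroxysteroid dehydrogenase, then Akr1c18, the 20-alpha-hydroxysteroid dehydrogenase that inactivates progesterone, then Akr1c13, Akr1c19, Akr1c12, then Akr1c6, a 17-beta-hydroxysteroid dehydrogenase best known from liver, then Akr1c20 and Akr1c21, a 17-alpha-hydroxysteroid dehydrogenase of kidney. Akr1c18, Akr1c12 and Akr1c20 are on the minus strand and the other 5 on the plus strand. 2810429I04Rik, at chr13:3478230-3501393 on the plus strand, ends 548 kb before the cluster, and Akr1cl is at chr1:65012689-65032759 on the minus strand.

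The promoters of the 3 genes with the highest counts in proximal tubule cells are shown because one of them, Akr1c19, had a high level in both genotypes while Akr1c18 and Akr1c21 had far higher levels in ko cells. Each line holds the 250 bases before the RefSeq start on GRCm38.p6, 5′ to 3′ on the strand of the gene. Akr1c18 is read from chr13:4150647-4150896 on the minus strand, Akr1c21 from chr13:4573825-4574074 and Akr1c19 from chr13:4233490-4233739, both on the plus strand. Capitals mark a match to TATAAA, to GTTAAT (an HNF1 half-site) or to CAAAGTCCA (an HNF4 site) on either strand.
Akr1c18: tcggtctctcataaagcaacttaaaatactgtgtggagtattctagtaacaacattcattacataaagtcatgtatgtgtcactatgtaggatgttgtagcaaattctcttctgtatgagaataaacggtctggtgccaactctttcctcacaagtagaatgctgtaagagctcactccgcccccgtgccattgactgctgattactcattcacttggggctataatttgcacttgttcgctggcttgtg
Akr1c21: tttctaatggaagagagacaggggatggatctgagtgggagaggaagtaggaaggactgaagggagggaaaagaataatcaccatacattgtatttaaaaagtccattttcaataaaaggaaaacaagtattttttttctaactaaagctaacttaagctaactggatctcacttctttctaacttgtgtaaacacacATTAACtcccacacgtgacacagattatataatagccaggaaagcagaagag
Akr1c19: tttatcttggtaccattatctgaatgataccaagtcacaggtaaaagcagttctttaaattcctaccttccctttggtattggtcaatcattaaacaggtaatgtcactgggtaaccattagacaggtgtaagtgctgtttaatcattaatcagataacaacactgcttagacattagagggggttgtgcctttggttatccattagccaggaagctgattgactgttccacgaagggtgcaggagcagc

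Of these 3 promoters only that of Akr1c21 held such a match, GTTAAT on the minus strand at 52 to 47 bases before the start. The same letters occurred in 6.43% of 32851 mouse promoters of this length. RefSeq promoters were matched for 9 of the 10 genes. TATAAA was present in 1 of these 9, that of Akr1c6, against 12.4% of all promoters, and CAAAGTCCA in 0 of 9, against 0.384%. TTCNNNGAA (a STAT site) was found in the promoter of Akr1c19, against 7.02% of all promoters, and TGACNNNGC (an antioxidant response core) in that of Akr1cl, against 10.2%. The promoters of Akr1c12 and Akr1c13 were identical at 92.5% of aligned positions, while those of Akr1c13 and Akr1c19 were identical at 59.0% and those of Akr1c18 and Akr1c21 at 43.7%. A match of letters is a description of the window and no evidence of binding.

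The pool gave 7510 cells with 1 of the 4 named tags, 1430 to 2613 per mouse, with 29498310 to 50355241 UMIs per mouse and a median of 16360 to 17290 UMIs per cell. A UMI (unique molecular identifier) counts 1 captured RNA molecule at its 3′ end, so the length of a transcript does not enter the count. None of 411 windows of 90 bases at the 3′ end of any of the 10 genes occurred in a transcript of another gene. Levels are UMIs per 1000000 UMIs of all genes (CPM), summed over the cells of a class in 1 mouse. Trim28 itself was at 22.8 and 24.4 CPM in proximal tubule-like cells of the ko mice and at 64.9 and 77.8 CPM in those of the wt mice, a log2 change of -1.60 ± 0.15 (SE; 2 against 2 mice; adjusted p = 0.00635, edgeR's quasi-likelihood test). The tag at the 3′ end lies outside the deleted exons, so this level does not check the deletion directly. In ureteric bud-like cells, which Six2-cre does not reach, it was at 137 and 147 CPM in ko and at 148 and 164 CPM in wt mice.

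Of the 19 classes, the proximal tubule-like (PT-like) class held 1132 cells in 2 clusters, with 356 and 288 cells in the ko mice and 266 and 222 in the wt mice. Its clusters had 9 and 8 of 9 proximal tubule markers above the other clusters. Akr1c18, Akr1c19, Akr1c21 and Akr1c6 had their highest mean level over the 4 mice in this class. For Akr1c18 this order comes from the ko mice: in wt mice its mean was 6.44 CPM in PT-like cells, 9.47 CPM in S-shaped body-like cells and 13.4 CPM, on 5 UMIs, in an unnamed class of 73 cells. The PT-like class held 89.1% of the UMIs of Akr1c21 and 83.0% of the 47 UMIs of Akr1c6. It held 76.1% of those of Akr1c18 and 59.5% of those of Akr1c19. Most of these UMIs came from ko mice for Akr1c21 and Akr1c6, and nearly all for Akr1c18, so their shares rest mainly on ko mice. The other members peaked elsewhere: Akr1c12 and Akr1c13 in collecting duct-like cells, 2810429I04Rik in distal tubule-like cells and Akr1c14 in endothelial-like cells. Akr1c20 had 8 UMIs in all cells and Akr1cl 1.

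**Figure D1:**
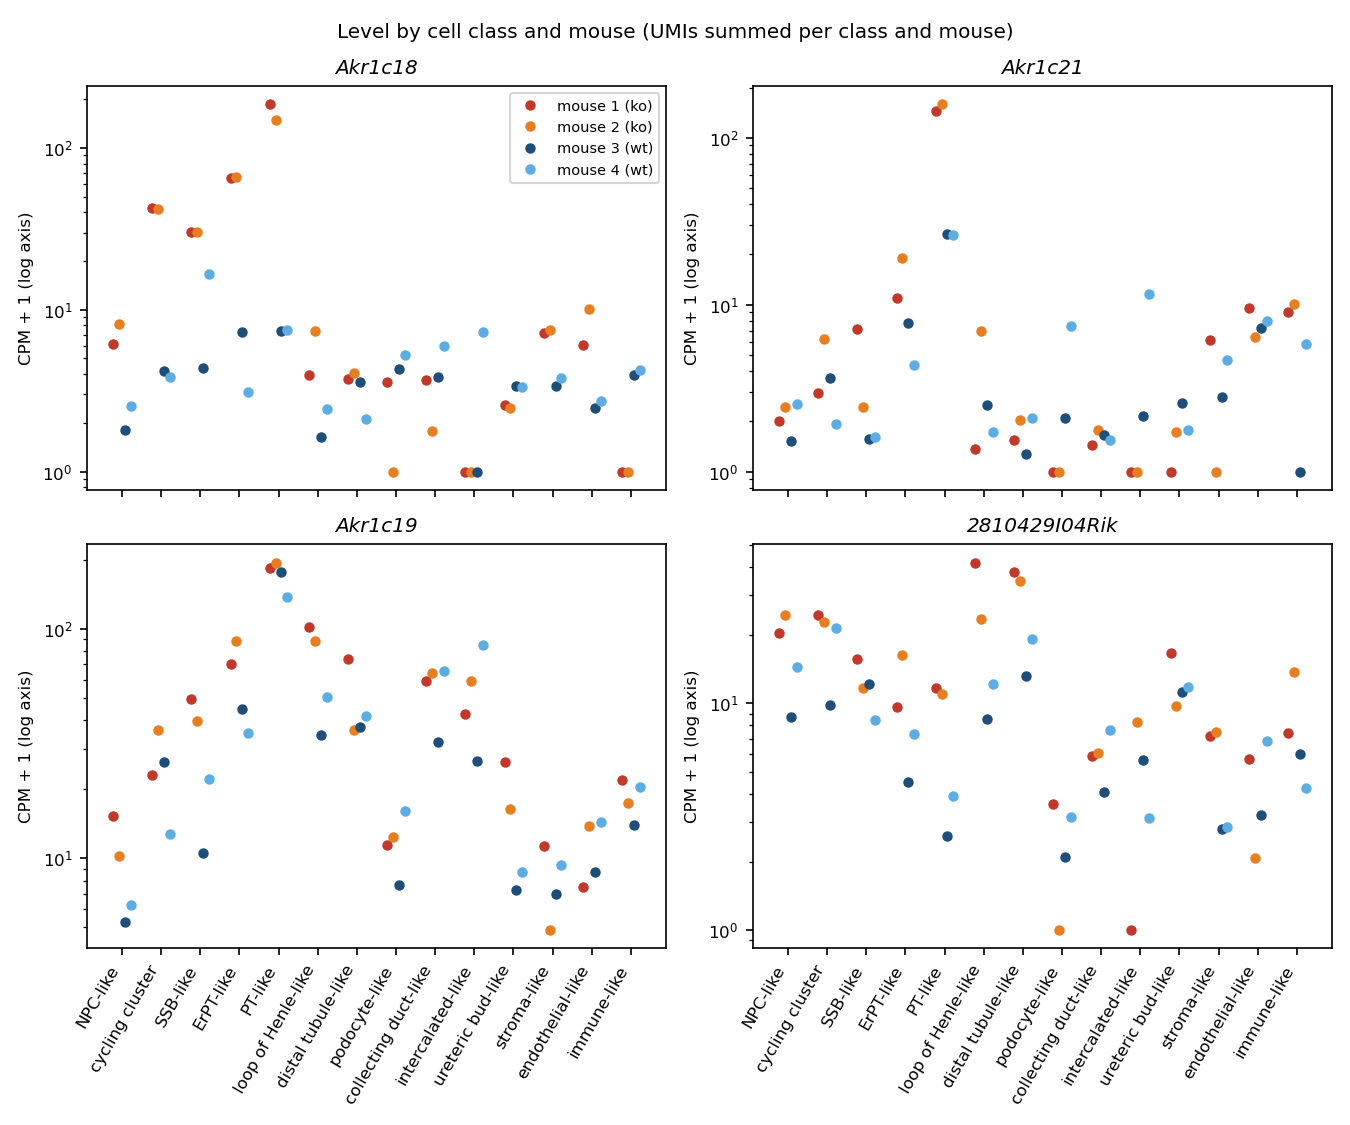
Level of 4 genes (CPM + 1 on a log axis, each panel with its own axis) by class. Mural-like, erythroid-like and unnamed classes are not shown, except the cycling one. A point is 1 mouse, coloured by genotype. Akr1c18 of the ko mice stands at 148 to 185 CPM in PT-like cells against 6.38 and 6.49 CPM in wt mice, while Akr1c19 is high there in all 4 mice.

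In PT-like cells the ko mice had far more Akr1c18 and Akr1c21 than the wt mice, and about the same Akr1c19. Akr1c18 was at 185 and 148 CPM in ko mice (1623 and 1114 UMIs) and at 6.38 and 6.49 CPM in wt mice (40 UMIs each). Both ko mice were far above both wt mice, and the log2 change was 4.69 ± 0.18 (SE; 2 against 2 mice). Akr1c21 was at 144 and 157.5 CPM in ko mice (1267 and 1183 UMIs) and at 25.4 and 25.3 CPM in wt mice (159 and 156 UMIs), a log2 change of 2.57 ± 0.13. The wt mice thus had a clear level of Akr1c21, lower than that of either ko mouse.

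Akr1c19 lies between Akr1c13 and Akr1c12 within the cluster. It was at 184 and 193 CPM in ko mice and at 175 and 136.5 CPM in wt mice, a log2 change of 0.27 ± 0.15. The groups did not overlap, but the gap between mouse 1 and mouse 3 was smaller than the gap between the wt mice.

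The long non-coding RNA 2810429I04Rik, whose function is not known, was at 10.7 and 9.985 CPM in ko mice (94 and 75 UMIs) and at 1.595 and 2.92 CPM in wt mice (10 and 18 UMIs). Its log2 change was 2.19 ± 0.32. Akr1c6 had 17 and 18 UMIs in ko mice and 2 in each wt mouse, which is 1.93 and 2.40 CPM against 0.319 and 0.325 CPM, with a log2 change of 2.68 ± 0.56. Both genes were higher in both ko mice, on few molecules. The same order of the mice held for 21.3% of all genes tested in PT-like cells.

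Akr1c12 did not follow the others. It was at 1.14 and 2.40 CPM in ko mice and at 4.63 and 1.62 CPM in wt mice, with groups that overlapped and a log2 change of -0.85 ± 0.58. Without mouse 3, which held 29 of its 67 UMIs, the log2 change was 0.10. Akr1c13 was likewise highest in mouse 3, at 0.910 and 1.198 CPM in ko and at 3.19 and 0.812 CPM in wt mice, and was too low to enter the fit.

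Akr1c14 had 4 and 1 UMIs in ko mice and 0 and 1 in wt mice, and Akr1c20 had 1 and 2 in ko mice and 0 and 1 in wt mice. The single UMI of Akr1cl was outside PT-like cells. At 6159262 to 8790571 UMIs per mouse in this class, a count of 0 allows up to 0.341 to 0.487 CPM (3 counts per mouse, counting error only).

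**Figure D2:**
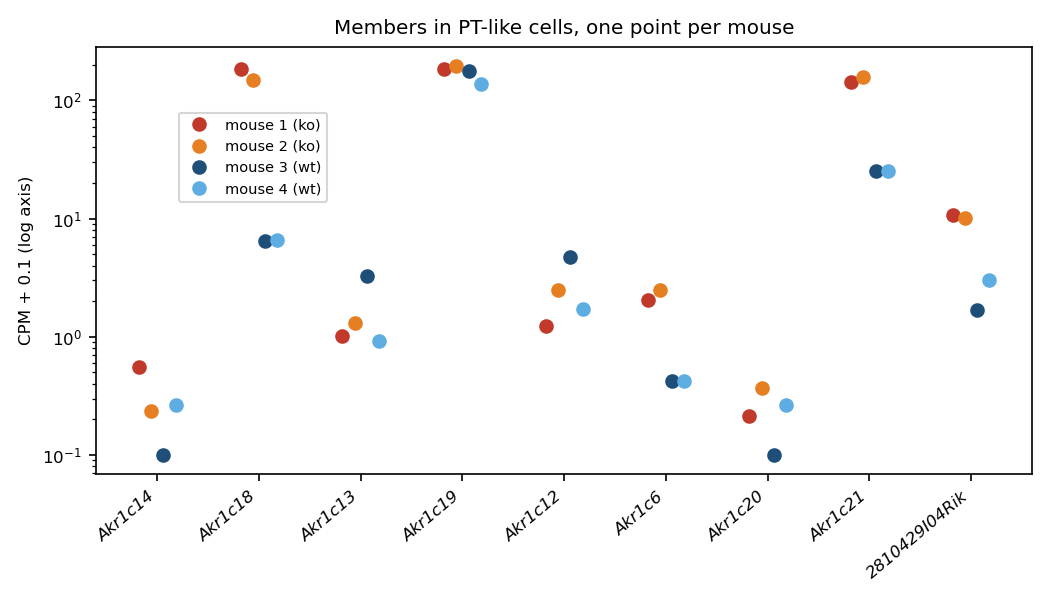
Level of the members in PT-like cells (CPM), 1 point per mouse, coloured by genotype. Akr1c18, Akr1c21, 2810429I04Rik, Akr1c6 and, narrowly, Akr1c19 are higher in both ko mice, an order held by 21.3% of all genes tested in this class. Akr1c19 is close in all 4 mice, and the 2 wt mice differ in Akr1c12.

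A gene is called where its adjusted p in edgeR's quasi-likelihood test over all genes of a class is under 0.05. In PT-like cells 6 of the 10 members passed the filter on low counts, and 3 were called, all higher in ko cells (Akr1c18, Akr1c21 and 2810429I04Rik), beside 0.694% of all 12537 genes tested (69 higher, 18 lower). By size of change Akr1c18 ranked 3, Akr1c6 32, Akr1c21 37 and 2810429I04Rik 58 from the highest of the 12537 genes. The members that passed had a median log2 change of 2.38 and all genes tested had -0.01. This contrast chose the members, so nothing is read from their count, ranks or median.

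The calls changed when single mice were left out, while the 3 called genes stayed higher in ko mice. Nothing is read from the number of members called. It changed in all fits that left out 1 mouse, and so did the number of all genes called. Over these and all other alternatives the log2 change of Akr1c18 ranged from 4.22 to 5.17, that of Akr1c21 from 2.27 to 2.88 and that of 2810429I04Rik from 1.83 to 2.73.

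Summed over the 8 genes on chromosome 13, the Akr1c level in PT-like cells was 517 and 506 CPM in ko mice and 215 and 171 CPM in wt mice. In wt mice Akr1c19 made up 81.5% and 79.6% of these UMIs, Akr1c21 11.8% and 14.8%, and Akr1c18 2.97% and 3.79%. In ko mice Akr1c18, Akr1c19 and Akr1c21 each made up 27.9% to 38.3%. The make-up of the cluster's RNA thus went from mostly 1 gene in wt to 3 genes of similar count in ko mice.

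Both clusters of the PT-like class showed the differences. In the first (612 cells; led by Fbp1, Spp2 and Gsta2) Akr1c18 was at 162 and 125 CPM in ko and at 8.35 and 2.35 CPM in wt mice. In the second (520 cells; led by Aadat, Serpina6 and Serpina1a) it was at 231 and 184 CPM in ko and at 4.12 and 11.6 CPM in wt mice. Akr1c21 was at 152 and 169 CPM against 32.8 and 30.2 CPM in the first, and at 129 and 140.4 CPM against 16.8 and 19.3 CPM in the second. Akr1c18 of the ko mice was thus higher in the second cluster and Akr1c21 higher in the first, in each ko mouse.

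The difference in Akr1c18 was also one in the number of cells with a UMI. In ko mice 69.4% and 66.0% of PT-like cells held at least 1 UMI, and in wt mice 6.39% and 5.41%. After every cell was thinned to 6800 UMIs the shares were 50% (exact binomial 95% interval 44.7 to 55.3%) and 44.8% (39.0 to 50.7%) in ko mice, and 2.63% and 3.15% in wt mice. These intervals cover counting error only. The wt shares were nearer to those of classes outside the proximal lineage than to those of ko PT-like cells. Without thinning, the shares in the wt mice were 4.25% and 7.53% in collecting duct-like cells and 2.65% and 2.70% in endothelial-like cells. Thinned, they were 0.472% and 2.15% in the collecting duct-like and 1.33% and 1.80% in the endothelial-like class, below both wt PT-like shares. The median depth was 25156.5 and 19012.5 UMIs per cell in the PT-like clusters, 15478.5 and 16088 in the collecting duct-like and 12539 and 10256 in the endothelial-like clusters.

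RNA free in the suspension was read from barcodes with 10 to 100 UMIs, which hold no cell and come from all mice of the pool together. Akr1c18 was at 17.1 CPM in it, above its level in PT-like cells of either wt mouse. How much of a level in cells is free RNA was not tested. A level below that of free RNA is not thereby a background level, since free RNA is only part of the UMIs of a cell. Collecting duct-like cells had 0.443 to 0.779 CPM of Akr1c21, against 14.0 CPM in free RNA. In wt mice 4 and 3 PT-like cells held at least 5 UMIs of Akr1c18, the highest 8 and 11, and its PT-like level was above the 1.48 and 1.75 CPM of endothelial-like cells. Akr1c21 was at 14.0 CPM in free RNA, below the 25.3 CPM of its lower wt mouse. Akr1c19 was at 35.8 CPM in it, below its PT-like level in every mouse. 2810429I04Rik was at 3.27 CPM in it, above its PT-like level in either wt mouse.

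Akr1c21 was found in 63.8% and 69.4% of PT-like cells of ko mice and in 28.6% and 27.0% of those of wt mice. Thinned, the shares were 40.7% and 45.1% in ko against 13.5% and 14.0% in wt mice. Akr1c19 was found in 93.0% and 94.8% of ko and in 86.5% and 86.9% of wt cells, and 2810429I04Rik in 20.5% and 19.1% of ko and in 3.38% and 6.31% of wt cells. Akr1c21 was thus present in wt cells and more frequent in ko cells, while most cells of both genotypes held Akr1c19.

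**Figure D3:**
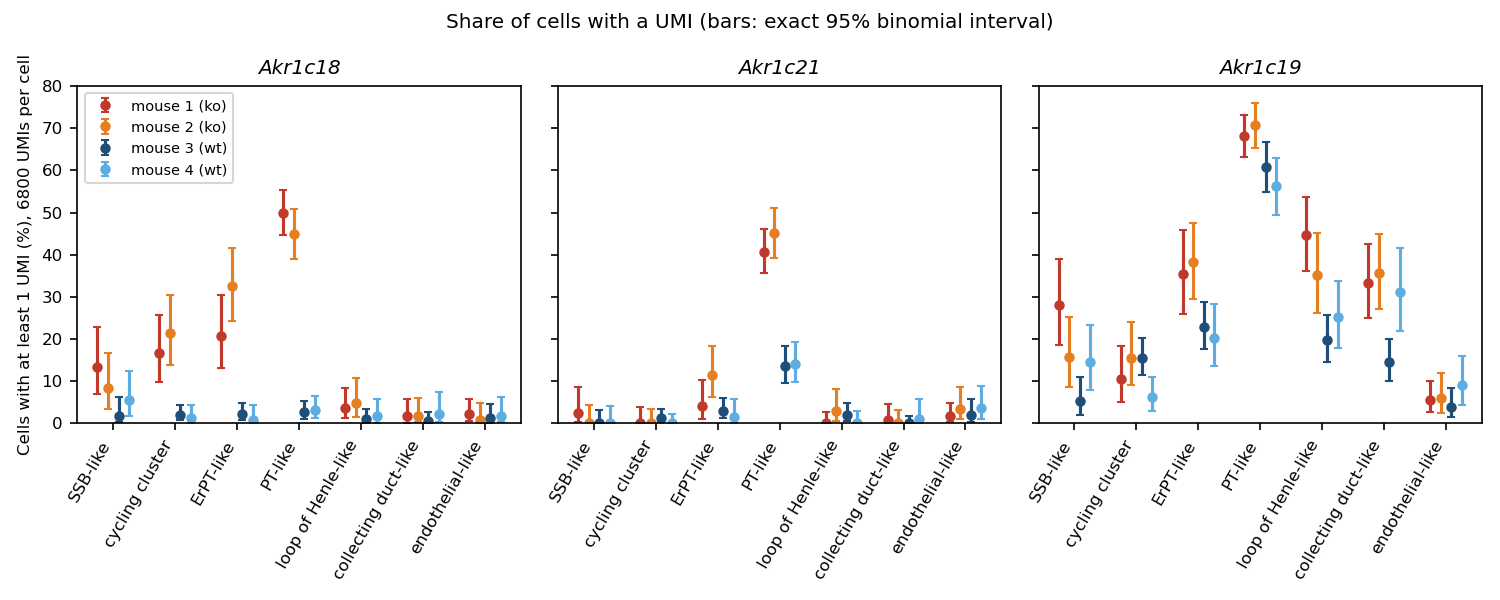
Percent of cells of each mouse, each cell thinned to 6800 UMIs, with at least 1 UMI of the gene in PT-like cells and comparison classes, with exact binomial 95% intervals (counting error only). Akr1c18 is found in 50% and 44.8% of ko PT-like cells and in 2.63% and 3.15% of wt ones.

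Within the ko mice the counts per cell were uneven. The median PT-like cell had 2 UMIs of Akr1c18 in both ko mice, the highest had 33 in mouse 1 and 39 in mouse 2, and the 10% of cells with the most held 41.96% and 42.7% of all its UMIs. Without thinning, at least 5 UMIs were found in 34.0% and 32.6% of ko cells and in 1.504% and 1.35% of wt cells (4 and 3 cells). For Akr1c21 the 10% of cells with the most held 47.5% and 48.1% of the UMIs in ko mice and 62.3% and 73.1% in wt mice, and for Akr1c19 they held 27.0% to 32.1% in all 4. Akr1c19 was therefore spread most evenly over the cells, at a median of 3 or 4 UMIs per cell.

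Akr1c18 and Akr1c21 were found together in 21.4% and 21.9% of thinned ko PT-like cells. Akr1c21 was present in 42.7% of cells with Akr1c18 and 38.8% of cells without it in mouse 1, and in 48.8% and 42.1% in mouse 2. The presence of one was thus only slightly more frequent with the other, in counts this sparse.

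**Figure D4:**
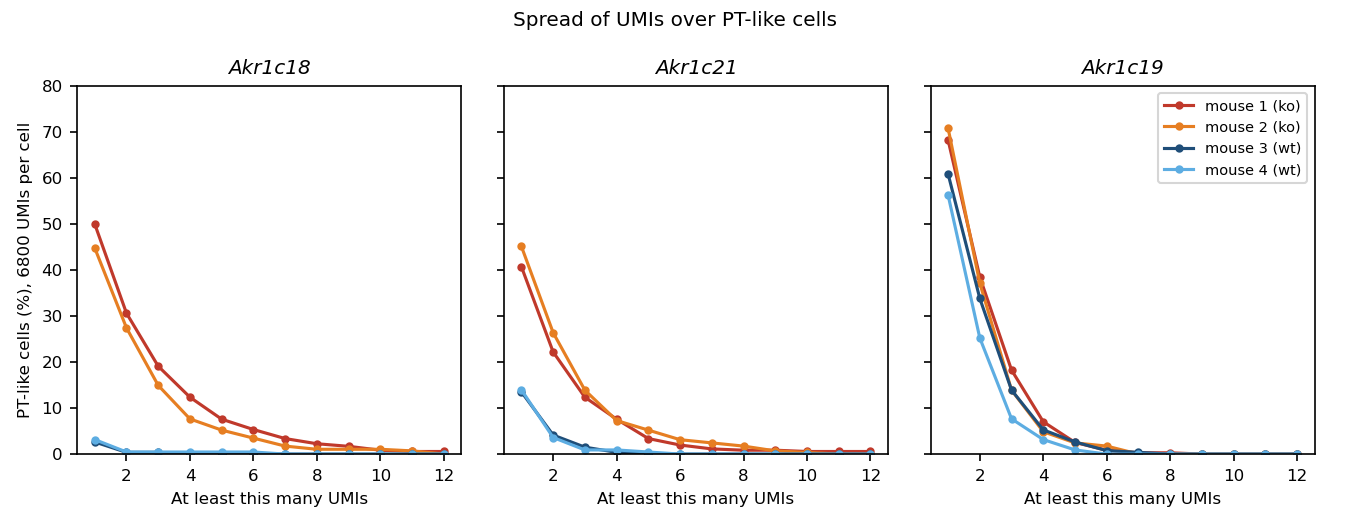
Percent of PT-like cells (y axis), each thinned to 6800 UMIs, that hold at least a given number of UMIs of the gene (x axis), 1 line per mouse. For Akr1c18 the ko lines start at 50% and 44.8% and the wt lines at 2.63% and 3.15%, and for Akr1c19 the lines start at 68.3% and 70.8% in ko and at 60.9% and 56.3% in wt mice.

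The difference in Akr1c18 was also present in classes other than PT-like cells. The order of these classes in development was not tested. Early proximal tubule-like (ErPT-like) cells, marked by Osr2 and Cdh6, had 63.9 and 65.0 CPM in ko mice and 6.30 and 2.11 CPM in wt mice, a log2 change of 3.77 ± 0.35. A class of 651 cycling cells led by Ube2c, Cenpf and Top2a, which took no cell type name, had 41.5 and 41.2 CPM in ko and 3.19 and 2.82 CPM in wt mice, a log2 change of 3.76 ± 0.25. Trim28 in this class was at 27.6 and 33.8 CPM in ko and at 155 and 178 CPM in wt mice. S-shaped body-like (SSB-like) cells had 29.4 CPM in both ko mice and 3.35 and 15.6 CPM in wt mice, a log2 change of 1.62 ± 0.44, and the wt mice differed widely from each other.

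In nephron progenitor-like (NPC-like) cells Akr1c18 had 5 and 10 UMIs in ko and 3 and 12 in wt mice, or 5.10 and 7.13 CPM against 0.797 and 1.54 CPM. Akr1c18 passed the filter on low counts in 6 classes, largely through its ko counts, and both ko mice were above both wt mice in each, beside 22.6% of all gene tests in these classes, so nothing is read from this count. The last of the 6, endothelial-like, lies outside the Six2 lineage and had 5.02 and 9.12 CPM in ko and 1.48 and 1.75 CPM in wt mice, where all 17 UMIs of mouse 2 came from 1 cell. The classes where it did not pass went either way, on few UMIs. Ureteric bud-like cells had 1.57 and 1.46 CPM in ko and 2.36 and 2.33 CPM in wt mice, collecting duct-like cells 2.66 and 0.779 against 2.84 and 4.97 CPM, podocyte-like cells 2.60 and 0 against 3.31 and 4.29 CPM, and immune-like cells 0 and 0 against 2.98 and 3.24 CPM. In the other direction, the loop of Henle-like class had 2.97 and 6.37 CPM in ko and 0.645 and 1.45 CPM in wt mice, stroma-like cells 6.21 and 6.45 against 2.40 and 2.77 CPM, and distal tubule-like cells 2.74 and 3.10 against 2.56 and 1.10 CPM. An unnamed class led by Pcp4, Lsp1 and Tagln had 2.79 and 10.5 against 0.877 and 1.07 CPM. Another, led by Pdgfrb, Ebf1 and Gucy1a1, had 2.38 and 20.5 against 1.80 and 1.31 CPM. The rest showed no such order. Erythroid-like cells had 0 and 18.4 against 1.65 and 1.84 CPM, and the unnamed class of 73 cells 7.01 and 20.5 against 13.4 and 13.4 CPM. Mural-like cells had 5.35 and 3.66 against 3.69 and 0 CPM, and intercalated-like cells 0 and 0 against 0 and 6.33 CPM. Except for 20.5 and 18.4 CPM in mouse 2, all these levels, NPC-like cells included, are below the 17.1 CPM of Akr1c18 in free RNA. How much of these levels is free RNA was not tested.

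Akr1c19 was found widely in the tubule and collecting system. The loop of Henle-like class held 101 and 88.0 CPM in ko mice against 33.5 and 49.6 CPM in wt mice, a log2 change of 1.18 ± 0.23. In ErPT-like cells it was at 69.5 and 87.6 CPM in ko and at 43.6 and 34.2 CPM in wt mice, with 1 ± 0.21. In SSB-like cells it was at 48.7 and 38.7 CPM in ko and at 9.50 and 21.2 CPM in wt mice, with 1.48 ± 0.33. In these 3 classes the log2 change was larger than the 0.27 ± 0.15 of PT-like cells. The difference between classes was not tested. In SSB-like cells both wt levels were below the 35.8 CPM of Akr1c19 in free RNA. So were the lower wt level of the loop of Henle-like class (33.5 CPM) and that of ErPT-like cells (34.2 CPM). The higher wt level of these last classes and all ko levels of the 3 classes were above it. How much of these levels is free RNA was not tested.

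In distal tubule-like cells Akr1c19 was at 73.3 and 35.1 CPM in ko and at 36.4 and 40.8 CPM in wt mice, and the groups overlapped. Ureteric bud-like cells, which keep Trim28, had 25.2 and 15.3 CPM in ko and 6.30 and 7.75 CPM in wt mice, a log2 change of 1.38 ± 0.45 at levels below the 35.8 CPM of free RNA. Over the 13 classes in which Akr1c19 was tested, both ko mice were above both wt mice in 7 and the groups overlapped in 6, where the same order held for 21.4% of all gene tests in these classes.

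Over the 4 mice, 2810429I04Rik had its highest mean levels past the proximal tubule. In distal tubule-like cells it was at 37.2 and 33.6 CPM in ko and at 12.2 and 18.2 CPM in wt mice, a log2 change of 1.24 ± 0.28, and in the loop of Henle-like class at 40.8 and 22.5 CPM against 7.53 and 11.2 CPM, with 1.78 ± 0.37. NPC-like cells had 19.4 and 23.5 CPM in ko and 7.71 and 13.5 CPM in wt mice. In wt mice alone the mean was 15.2 CPM in distal tubule-like cells and 14.7 CPM in the cycling class. The wt mean of 9.37 CPM in the loop of Henle-like class was below the 10.6 CPM of NPC-like cells. Both ko mice were above both wt mice in 6 of the 11 classes tested, and in 21.7% of all gene tests in these classes. In each of the 4 mice its level was higher in NPC-like than in PT-like cells, the reverse of the order seen for Akr1c18, Akr1c19 and Akr1c21 in each ko mouse.

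Over all 4 mice, Akr1c21 was the member with the largest share of its UMIs in PT-like cells, most of them from ko mice. ErPT-like cells had 9.93 and 18.1 CPM in ko and 6.76 and 3.38 CPM in wt mice, a log2 change of 1.40 ± 0.44. Endothelial-like cells had 8.61 and 5.37 CPM in ko and 6.27 and 6.99 CPM in wt mice, and the groups overlapped. There 1 cell held 20 of the 24 UMIs of mouse 1, and 1 cell held 9 of the 12 UMIs of mouse 4. Collecting duct-like cells had under 1 CPM in every mouse. All of these levels except that of mouse 2 in ErPT-like cells are below the 14.0 CPM of free RNA.

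Members were called in 3 further classes. Akr1c18 was the 1 of 4 members tested in ErPT-like cells (0.375% of all genes called there) and the 1 of 3 in the cycling class (0.267%), and Akr1c19 was the 1 of 3 in SSB-like cells (1.71%). In loop of Henle-like (0.268%), distal tubule-like (0.219%) and NPC-like cells (1.88%) 0 of 2, 0 of 2 and 0 of 3 tested members were called by edgeR. At an unadjusted p under 0.05 these counts were 2, 1 and 3, beside 7.74%, 5.78% and 10.3% of all genes, and by DESeq2 0, 0 and 0. In the classes with a call DESeq2 called 1 member in ErPT-like, 1 in the cycling and 0 in SSB-like cells, so that the call of Akr1c19 was lost. The choice of members rests on the same mice, so these counts are also descriptions.

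Akr1c12 and Akr1c13, neighbours of Akr1c19 on either side, had their highest level in collecting duct-like cells. Akr1c13 was at 15.9 and 16.8 CPM in ko and at 5.69 and 16.0 CPM in wt mice, and Akr1c12 at 7.97 and 7.40 CPM in ko and at 2.41 and 6.08 CPM in wt mice. The low values were those of mouse 3, of whose 212 collecting duct-like cells 209 were in a cluster of their own. In the other cluster of that class Akr1c13 was at 15.9, 16.8 and 16.2 CPM in mice 1, 2 and 4. Akr1c12 was there at 7.97, 7.44 and 6.14 CPM in the same mice. For Akr1c13 the wt mouse lay between the ko mice, and for Akr1c12 it lay below both.

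Akr1c14 had 49 UMIs in all, 27 of them in endothelial-like cells (11 and 9 in ko, 6 and 1 in wt mice). A small endothelial-like cluster of 77 cells led by Tm4sf1, Sox17 and Gja4 held 6 and 4 of these in ko mice and 0 in both wt mice, which had 6 and 16 cells there against 32 and 23. The gene did not pass the filter on low counts, and a difference per cell was not tested.

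The 5 neighbouring genes that passed the filter had log2 changes near 0. Akr1e1, the next gene after Akr1c21 and another aldo-keto reductase, was at 62.8 and 57.1 CPM in ko and at 58.4 and 43.7 CPM in wt PT-like cells, a log2 change of 0.23 ± 0.17 beside 2.57 ± 0.13 for Akr1c21. Between 2810429I04Rik and the cluster, Gdi2, which recycles Rab proteins, was at 208 and 213 CPM in ko and at 179 and 195 CPM in wt mice (0.17 ± 0.11), and Net1, an exchange factor for RhoA, had -0.31 ± 0.23. Fam208b and Asb13 had 0.09 ± 0.19 and 0.12 ± 0.20. Of the 8 other annotated features inside the cluster, 3 were in the matrix and 0 of these had a UMI in PT-like cells. The higher levels of Akr1c18, Akr1c21, Akr1c6 and 2810429I04Rik were thus interleaved along the chromosome with genes that differed little.

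**Figure D5:**
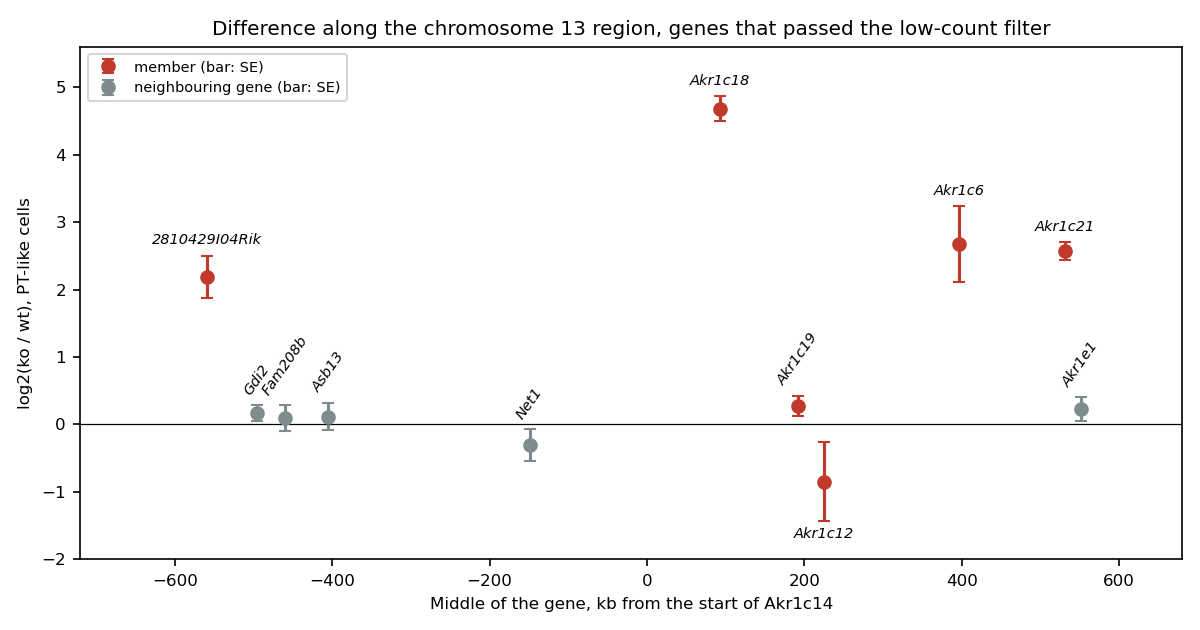
Log2 change between ko and wt PT-like cells (y axis, bars are SE) against the position of the gene on chromosome 13 (x axis, kb from the start of Akr1c14), for members (red) and neighbours (grey) that passed the filter on low counts. Akr1c19 and Akr1c12 lie near or below 0 between Akr1c18 at 4.69 and Akr1c21 at 2.57.

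Lists of related enzymes, of genes of steroid and prostaglandin metabolism and of targets of the oxidative stress factor Nrf2 gave no calls in PT-like cells. There edgeR called 0 of 6 tested aldo-keto reductases outside the cluster (1 at an unadjusted p under 0.05), 0 of 12 genes of steroid metabolism (1), 0 of 13 of prostaglandin metabolism (4) and 0 of 15 Nrf2 targets (3). Of all genes tested in this class 0.694% were called and 11.98% were at an unadjusted p under 0.05. At this share of calls, nothing is read from 0 calls in lists this short. DESeq2 called 0 in each list. Their median log2 changes were 0.03, 0.11, -0.03 and -0.02, beside -0.01 for all genes. The 4 list genes with the largest log2 changes in either direction among those fitted were Cbr3 (-1.30 ± 0.32), Srxn1 (1.25 ± 0.45), Hsd3b2 (1.10 ± 0.45) and Ptgds (1.02 ± 0.31), picked after their values were seen. Of the most abundant, Akr1a1, which reduces sugar aldehydes, was at 549 and 517.5 CPM in ko and at 469 and 516.5 CPM in wt mice (0.11 ± 0.11), and Hsd17b10, a mitochondrial steroid and fatty acid dehydrogenase, had 0.18 ± 0.11. Cbr1, a carbonyl reductase that acts on prostaglandins, had -0.03 ± 0.14. Gclm, the regulatory subunit of the enzyme for glutathione synthesis, had -0.22 ± 0.13. Gsta2, a glutathione transferase, was at 801 and 565 CPM in ko and at 497 and 515.5 CPM in wt mice (0.43 ± 0.17). In ErPT-like and loop of Henle-like cells edgeR and DESeq2 also called 0 in each list. Of all genes tested there edgeR called 0.375% and 0.268%. At an unadjusted p under 0.05 in edgeR, ErPT-like cells had 1 of 5, 1 of 7, 3 of 12 and 5 of 11, with the lists in the same order. This was beside 7.09% of all genes there. Loop of Henle-like cells had 1 of 6, 0 of 8, 3 of 12 and 2 of 14, beside 7.74% of all genes.

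The genes whose levels were most like those of the 3 most abundant members were named by Pearson's r of log2(CPM + 10) over 76 sums (19 classes in each of 4 mice, which share 1 library, so that r is a description). For Akr1c19 they were Mpc2, a subunit of the mitochondrial pyruvate carrier (r = 0.901), Acadm, an enzyme of fatty acid oxidation (0.873) and Mdh1, the cytosolic malate dehydrogenase (0.870). For Akr1c21 they were Nat8, an acetyltransferase of kidney and liver (0.906), Gm15318 (0.886) and Acat3 (0.864). For Akr1c18 they were Akr1c6 of the same cluster (0.809), Defb29, a beta-defensin (0.782) and Ugt1a6a, a glucuronosyltransferase (0.777). Akr1c6 had only 47 UMIs in all cells, 83.0% of them in PT-like cells, so any r with it rests on few molecules.

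The sums cover both genotypes, so r also rises with a shared difference between them. Nat8 was at 210.2 and 163 CPM in ko and at 36.1 and 28.1 CPM in wt PT-like cells (2.54 ± 0.19), and Defb29 at 298 and 244 CPM in ko and at 45.0 and 60.9 CPM in wt mice (2.35 ± 0.18). Mpc2 was at 1476 and 1431 CPM in ko and at 1210 and 1278 CPM in wt mice (0.22 ± 0.11). The log2 changes of Gm15318, Acat3 and Ugt1a6a lay between those of Mpc2 and Defb29, at 0.745 ± 0.23, 0.87 ± 0.20 and 0.93 ± 0.29. Between members, r was 0.814 for Akr1c6 and Akr1c21, 0.719 for Akr1c18 and Akr1c21, 0.679 for Akr1c12 and Akr1c13, 0.560 for Akr1c19 and Akr1c21 and -0.172 for Akr1c13 and Akr1c18.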

How the data were processed

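The pool was a 10x Genomics 3′ library with a multiplexing library. UMI counts per gene and tag were made by the authors with Cell Ranger (6.0.0 by the processing notes, 4 by the matrix header; GRCm38) and deposited unnormalized, for all 3921239 barcodes. The list of tags names 4 tags (2 ko and 2 wt mice); 4307 cells with other tags were not used, nor were the bulk samples.

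Barcodes of 6890 UMIs or more (the order-of-magnitude rule for 24000 expected cells) with 200 genes or more and no more than 10% mitochondrial UMIs were taken as cells, 19273 in all. HTODemux (Seurat 5.3.0) assigned 7510 to 1 of the 4 mice; 5062 with several tags were left out as doublets, and Scrublet (scanpy 1.11.5), which marked 3.02%, was an alternative. Cells were clustered by SCTransform (sctransform 0.4.2; 3000 variable genes less the members), 30 principal components and a resolution of 0.8, into 23 clusters. Clusters were named from marker lists. Of 4 unnamed clusters, 2 had more markers of another type among their 10 leading genes, and 2 were left unnamed by hand. These were the cycling class, led by genes of the cell cycle, and the class of 73 cells. The leading genes of the class of 73 cells held erythroid markers beside others such as Ly6d, Cyp11a1 and Hsd3b1. The latter choice and the naming thresholds were made after the clusters were seen, so that class values depend on these names.

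In classes with 10 cells or more from each mouse, counts were summed per mouse, filtered by filterByExpr, scaled by TMM and tested with edgeR 4.0.16 (quasi-likelihood, Benjamini-Hochberg adjustment over all genes), a step tested on simulated data with known changes. The simulated data had the same spread for all genes. Changes were put only on genes above a set count, which Akr1c6 and Akr1c12 do not reach in PT-like cells. The members and gene lists were chosen with earlier results of these data known. Genes named are the members, Trim28, list genes that were called or among the 4 highest of their list in PT-like cells, and the 3 genes most correlated with each of the 3 most abundant members; Nat8, Defb29 and Mpc2 are the examples given with values. The neighbours on chromosome 13, taken by position, and cluster-leading genes were named outside this rule after their values were seen. So were Cbr3, Srxn1, Hsd3b2 and Ptgds, the list genes with the largest log2 changes in PT-like cells. Intervals and floors cover counting error only. Exact tests over 2 and 2 mice cannot go below p = 0.333. Positions are from GENCODE vM21 and promoters from RefSeq.

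Alternatives were DESeq2 1.42.0, its size factors, no filter on low counts, leaving out each mouse, other cell calling, tag assignment, doublet removal and clustering, and, chosen after seeing the data, each PT-like cluster alone.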

Additional observations from a re-analysis of the deposited data

How the results depend on the processing

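The 87 genes called in PT-like cells became 144 with DESeq2, 51 with a minimum of 2500 UMIs and 45 in the second PT-like cluster alone (an alternative chosen after seeing the data), and ranged from 0 to 2136 when each mouse was left out. The 3 members called in PT-like cells ranged from 0 to 4 when each mouse was left out. The 3 calls of members in other classes became 10 with no filter on low counts, 5 with the members kept in the clustering, 5 with tags assigned by the share of the highest tag and 6 with HTODemux by kmeans, and ranged from 1 to 15 when each mouse was left out. The calls among the other gene lists, 0 as reported, ranged from 0 to 6. The share of PT-like cells with Akr1c18 was 67.7% in ko and 5.90% in wt mice over both mice, and 47.4% and 2.89% after thinning. The log2 change of Akr1c12 ranged from -1.446 to 0.103 when each mouse was left out, with a change of direction without mouse 3. The other 5 members that were fitted (Akr1c6, Akr1c18, Akr1c19, Akr1c21 and 2810429I04Rik) kept their direction in PT-like cells under every alternative that gave a value: Akr1c6 ranged from 2.53 to 2.88 and Akr1c19 from 0.09 to 0.48. Akr1c18 lost its call without mouse 1, Akr1c21 without mouse 1 and without mouse 2, and 2810429I04Rik in 6 of 16 alternatives. Akr1c19 gained a call without mouse 3 (0.477) and Akr1c6 without mouse 4 (2.68). The cause of these changes was not tested, except that leaving out a mouse leaves 1 mouse in its group, whose spread is taken from the other group.

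With 2 mice a genotype, Akr1c14, Akr1c20 and Akr1cl have too few UMIs for any comparison. No paired analysis was possible because the mice of the pool carry different numbers in the 2 genotypes and the bulk samples that share numbers were not analysed here.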
